A study of Mus musculus with 10 samples.

Results

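Ribosome-bound RNA of cells marked by Il-17rb-Cre was compared with that of cells marked by Il-17rc-Cre in the S1DZ, the dysgranular zone of the primary somatosensory cortex of the mouse. Libraries were chosen by the genotype in their labels, which gave 7 of the 10 libraries of the study: replicates 1 to 3 of Il-17rb-Cre and replicates 1 to 4 of Il-17rc-Cre. All genes were members of the comparison. Of 55536 genes in the table, 20301 passed a filter on low counts and were tested. Mice of both groups carried Cre under the gene of an interleukin-17 (IL-17) receptor subunit and received the same virus, AAV5-EF1α-Flex-EGFPL10a, at 400 nl per side and 0.1 µl per minute. Ribosomes were pulled down with antibodies against GFP after 4 weeks. A cell was therefore tagged only if Cre had been active in it and the virus had reached it. The EF1α promoter is active in many cell types. The 10 libraries include none of input RNA or of mice without Cre, so RNA carried along from untagged cells was not measured. Age, sex and strain are not given in the labels used here. Nor do the labels say whether a replicate was 1 animal or a pool, so p-values measure the spread between these libraries, which may be technical.

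In translating ribosome affinity purification, or TRAP, a green fluorescent tag on a protein of the large ribosomal subunit allows ribosomes and the messages on them to be taken from marked cells without sorting the cells. The IL-17 cytokines act on pairs of receptor subunits. Il17ra is the shared subunit, Il17rc joins it to receive IL-17A and IL-17F, and Il17rb joins it to receive IL-17E, also called IL-25. The receptors recruit the adaptor Act1 and lead to transcription through NF-kappaB and C/EBP factors, best known from epithelial and stromal cells. In the cortex, subunits of the family have been described in neurons as well as in glia, so the cells that carry each driver are of interest in themselves.

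Libraries labelled Il-17rb-Cre held more RNA of excitatory neurons and their synapses, and those labelled Il-17rc-Cre held far more RNA of astrocytes, of mural and endothelial cells and of the interferon response. All 13 excitatory neuron markers tested were higher in Il-17rb-Cre, at a median log2 fold change of 1.93, which was 0.02 over all tested genes. All 14 astrocyte markers were lower, at a median of -5.02, and so were all 14 mural and fibroblast markers, at -5.85. Markers of inhibitory neurons went both ways. The test was edgeR's quasi-likelihood test with Benjamini-Hochberg adjustment at 0.05 over all tested genes, which called 8057 genes, or 39.7%. Of these, 3603 (17.7% of those tested) were higher and 4454 (21.9%) lower in Il-17rb-Cre. The groups did not overlap in 53.0% of tested genes, 27.5% with all Il-17rb-Cre libraries higher and 25.5% with all of them lower. Counts of list members below are read against these shares. Many genes named below were picked for a small p or a large fold, so their calls and lack of overlap are descriptions.

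The calls were uneven in size. The called genes had a median log2 fold change of 1.16 on the higher side and -2.67 on the lower side. More than 4-fold differences were found in 406 genes that were higher and 2780 that were lower, and more than 16-fold ones in 48 and 1421. For 357 of the genes called lower, not 1 read was counted in any Il-17rb-Cre library, whereas 25 of those called higher had no read in any Il-17rc-Cre library. With Il-17rb-Cre replicate 2 or 3 left out, the number of higher genes fell to 2221 or 2267, while that of lower genes was between 3718 and 4866 over all 10 single libraries left out. Leaving out 2 libraries together left 2305 higher genes without Il-17rc-Cre replicates 1 and 3 and 2048 without replicates 2 and 4. Some printed counts and medians of lists moved by more than 1.5 times without 1 library or without either of these pairs. The other value is then given with the libraries left out. For a single called member, the loss of its call without 1 library is given. Loss without a pair is given only where no single library removed the call. All 18 named calls lost without 1 library were also lost without at least 1 of these pairs.

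**Figure D1:**
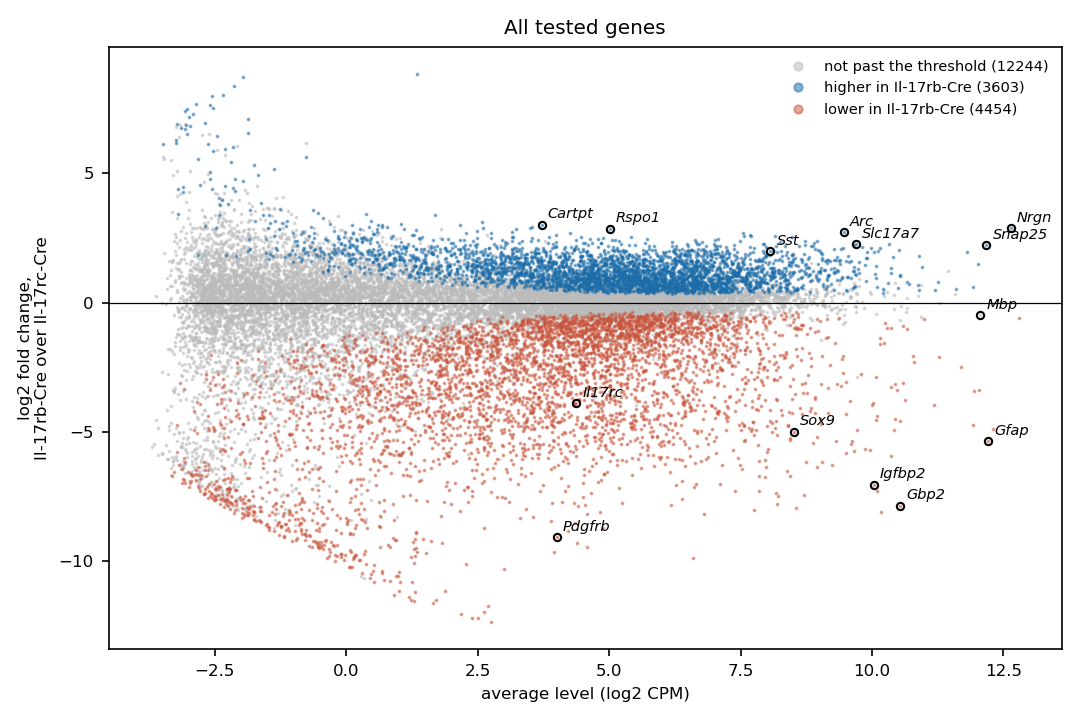
Each point is 1 tested gene, with its average level over all libraries in log2 CPM, the count scaled to library size, on the horizontal axis and its log2 fold change of Il-17rb-Cre over Il-17rc-Cre on the vertical axis; blue and red points passed the threshold (3603 higher, 4454 lower). Called genes lie farther from 0 on the lower side, with Gbp2 at -7.86 and Pdgfrb at -9.08, than on the higher side, with Nrgn at 2.89.

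Total counts per library were between 44669145 and 78794795. The 3 Il-17rb-Cre libraries were alike in most marker lists, while the Il-17rc-Cre replicates differed among themselves in immune and reactive genes. The 28 interferon response genes summed to 9318, 18423, 12268 and 23444 CPM (scaled by TMM) in Il-17rc-Cre replicates 1 to 4, and the 20 reactive astrocyte genes to 1559, 4924, 2135 and 4294 CPM. Oligodendrocyte markers summed to 1261, 4082, 1065 and 2508 CPM there. Replicates 2 and 4 were highest in all 3 lists, whereas astrocyte markers, at 13349, 11894, 14602 and 13725 CPM, did not set them apart. In bulk samples of this kind, fewer cells of a type and less RNA per cell cannot be told apart.

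**Figure D2:**
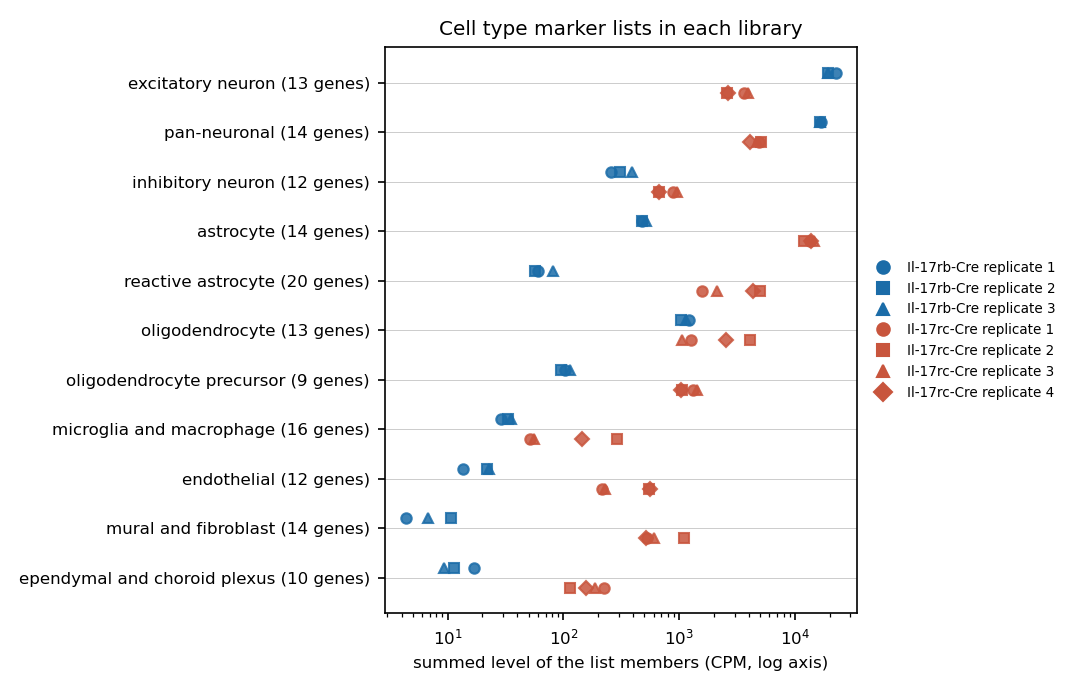
Summed level of each cell type marker list in CPM (log axis), 1 symbol per library, Il-17rb-Cre in blue and Il-17rc-Cre in red, with the symbol shape giving the replicate. Il-17rb-Cre libraries lie to the right in the excitatory and pan-neuronal lists and to the left in the inhibitory list. They lie far to the left in the astrocyte, mural, endothelial and oligodendrocyte precursor lists. In the oligodendrocyte list the groups overlap.

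Transcripts of the driver genes were read first, since they bear on the labels. Il17rc (GRCm38, chromosome 6, 113471427 to 113483140) followed its label, at 20.3, 28.3, 24.9 and 39.9 CPM in Il-17rc-Cre replicates 1 to 4 and 1.45, 3.19 and 1.03 CPM in Il-17rb-Cre replicates 1 to 3, with no overlap. Il17rb (chromosome 14, 29996135 to 30008896) did not: it was at 0.657, 0.614 and 0.872 CPM in the libraries labelled Il-17rb-Cre and 0.782, 1.49, 0.0667 and 2.72 CPM in those labelled Il-17rc-Cre, so the groups overlapped. Its fold change did not pass (log2 -0.82, edgeR adjusted p = 0.491), and it turned to 0.77 without Il-17rc-Cre replicates 2 and 4 (edgeR adjusted p = 0.578) and to 0.98 under limma voom (limma adjusted p = 0.359). Directions for Il-17rb-Cre thus rest on the labels as deposited. Il17ra, the shared subunit, was at 18.0, 30.7 and 30.7 CPM against 16.9, 15.6, 20.8 and 21.7 CPM, again with overlap (0.50 ± 0.22 as log2 fold change ± standard error, edgeR adjusted p = 0.102). It passed without Il-17rb-Cre replicate 1 (0.66, edgeR adjusted p = 0.0341) and under upper quartile scaling (0.59, edgeR adjusted p = 0.0481).

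The minor receptor subunits Il17rd and Il17re averaged under 1 CPM in both groups and did not pass. Il17rd had a log2 fold change of -3.46, which passed without Il-17rc-Cre replicate 4 (-3.88, edgeR adjusted p = 0.0388). Of the ligands, 2 were higher in Il-17rb-Cre. Il17d, a member with little-known receptor use, was at 19.6, 19.8 and 19.8 CPM in Il-17rb-Cre and 7.49, 8.45, 8.69 and 2.89 CPM in Il-17rc-Cre (1.52 ± 0.36 on the log2 scale, edgeR adjusted p = 0.00736). All 3 Il-17rb-Cre values stood above all 4 others. Il17b, a ligand of Il17rb, was higher too, at 1.00 ± 0.273 against 0.285 ± 0.0785 CPM (1.80 ± 0.49 on the log2 scale, edgeR adjusted p = 0.0152), a call lost without Il-17rb-Cre replicate 1. Here and in the following, a pair of values with ± gives the mean and SD in CPM over the 3 Il-17rb-Cre libraries against the 4 Il-17rc-Cre libraries. Il25, which encodes IL-17E, was below 1 CPM in each of the 7 libraries, and did not pass (log2 -1.18, edgeR adjusted p = 0.399).

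Rpl10a, the mouse gene of the tagged protein, was at 669.6, 602 and 665 CPM against 267, 191, 266 and 228 CPM, with every Il-17rb-Cre library higher. The difference did not pass (1.44 ± 0.70, edgeR adjusted p = 0.126) in the model that also held the Il-17ra-Cre libraries, but passed among the 7 compared libraries (1.32, edgeR adjusted p = 0.000139). The sources used here do not say if transgene reads were assigned to this gene. Reads of the Y-linked Eif2s3y, Ddx3y and Uty were present in all 7 libraries, so each held RNA of male tissue. Ddx3y was lower in Il-17rb-Cre (-0.70, edgeR adjusted p = 0.0457), a call lost without any 1 of the 7 compared libraries but Il-17rb-Cre replicate 3.

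Markers of cortical excitatory neurons were higher in Il-17rb-Cre throughout. Slc17a7 (GRCm38, chromosome 7, 45163949 to 45176142), the vesicular glutamate transporter of the cortex, was at 1502, 2337 and 1838 CPM in Il-17rb-Cre replicates 1 to 3 and 427, 414, 407 and 327 CPM in Il-17rc-Cre replicates 1 to 4. The lowest Il-17rb-Cre library was still far above the highest of the other group, and the difference was 2.27 ± 0.39 on the log2 scale (edgeR adjusted p = 0.00124). Nrgn, a calmodulin-binding protein of dendrites, was at 18141, 14186 and 14892 against 2525, 1384, 2861 and 1710.2 CPM. Slc17a6, the transporter otherwise typical of thalamic neurons, was at 18.7 ± 3.54 against 5.21 ± 0.786 CPM and the transcription factor Neurod1 at 20.5 ± 4.87 against 7.22 ± 1.41 CPM. The 13 markers summed to 22410.5, 19244 and 19227 CPM in Il-17rb-Cre and 3630.0, 2560.2, 3926 and 2618 CPM in Il-17rc-Cre, and their median was 2.00 without Il-17rc-Cre replicates 2 and 4 and 1.81 without replicates 1 and 3.

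Of 14 pan-neuronal genes, 11 were higher and 0 lower (median 1.54). Snap25, a membrane fusion protein of nerve endings, was at 10552, 10112 and 10363 against 2413, 2047, 2455 and 1969 CPM (2.22 ± 0.30, edgeR adjusted p = 0.000323). Rbfox3, which encodes the neuronal nuclear antigen NeuN, was at 1066 ± 77.5 against 236 ± 49.5 CPM, the RNA-binding protein Elavl4 at 237 ± 9.74 against 66.9 ± 5.15 CPM and the ubiquitin hydrolase Uchl1 at 1267 ± 180.0 against 399 ± 36.9 CPM. The Uchl1 call was lost without Il-17rc-Cre replicates 1 and 3 or 2 and 4 together. In Uchl1, 18.1% of the exonic length is shared with Uchl1os. The number of higher genes in the list was 7 without Il-17rc-Cre replicates 1 and 3 together.

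Markers of inhibitory neurons did not move together. Of 12 genes of the general inhibitory list, 1 was higher, 3 were lower and 8 did not pass (median -0.41, -0.61 without Il-17rb-Cre replicate 3 and -0.26 without Il-17rc-Cre replicate 3). Their sum, which abundant members weigh most, was 257, 308 and 394 CPM in Il-17rb-Cre. In Il-17rc-Cre it was 879, 674, 958 and 672 CPM, with no overlap. Gad1, the main enzyme of GABA synthesis, was at 109.9, 135 and 175 CPM in Il-17rb-Cre and 155, 267, 173 and 188 CPM in Il-17rc-Cre, with overlap (edgeR adjusted p = 0.237). Gad2, its partner enzyme, was lower by a small amount (-0.56, edgeR adjusted p = 0.0353), a call lost without any 1 of the 7 compared libraries but Il-17rb-Cre replicate 3 and Il-17rc-Cre replicate 1. The higher member was Lhx6, a factor of interneurons from the medial ganglionic eminence, at 1.24 (edgeR adjusted p = 0.039), a call lost without any 1 of the 7 compared libraries but Il-17rc-Cre replicate 2, or without Il-17ra-Cre replicate 2.

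Of 13 markers of Pvalb and Sst interneurons 6 were higher and 2 lower (median 0.91). The higher count was 3 without Il-17rc-Cre replicates 1 and 3 together, and the lower count 1 without Il-17rb-Cre replicate 1 or 2, and 1 without Il-17rc-Cre replicates 1 and 3 together. Sst, the peptide somatostatin (GRCm38, chromosome 16, 23889573 to 23890958), was at 665, 616 and 581 against 149, 147, 199 and 124 CPM (2.00 ± 0.29, edgeR adjusted p = 0.000445), with no overlap. Satb1, a chromatin organiser needed by these interneurons, was at 188 ± 19.9 against 61.4 ± 8.91 CPM and Crhbp, a binding protein of corticotropin-releasing hormone, at 44.8 ± 0.376 against 16.97 ± 1.65 CPM. Sox6, a transcription factor of interneurons that is also made by oligodendrocyte precursors and astrocytes, was lower (-2.13). The Vip, Lamp5 and Sncg list split into 3 higher and 3 lower of 12. Npy, neuropeptide Y, was higher at 371 ± 16.9 against 131 ± 16.5 CPM, while the chemokine Cxcl14 was lower at 13.9 ± 4.21 against 298 ± 161 CPM, and Htr3a and Sncg were lower at log2 fold changes of -3.27 and -4.39. The Htr3a call was lost without Il-17rc-Cre replicates 1 and 3 together, and the higher count of the list was 1 without Il-17rb-Cre replicate 1 or 3, or Il-17rc-Cre replicate 1 or 4, and 1 without Il-17rc-Cre replicates 1 and 3 or 2 and 4 together.

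Layer markers of excitatory neurons were higher in part. Of 11 genes of layer 2/3, 5 were higher and 1 lower (median 0.61, 1.25 without Il-17rc-Cre replicate 2). The lower count was 2 without Il-17rc-Cre replicate 2, and 2 without Il-17rc-Cre replicates 2 and 4 together. Lamp5, a membrane protein of upper layers and of a class of interneurons, was at 473, 505 and 524 against 99.7, 82.0, 101 and 54.8 CPM (2.57 ± 0.23, edgeR adjusted p = 2.45e-05). Calb1, the calcium buffer calbindin, was at 283 ± 62.4 against 73.9 ± 13.4 CPM and the transcription factor Cux2 at 48.6 ± 6.54 against 13.9 ± 4.41 CPM. The exception, Wfs1, a protein of the endoplasmic reticulum, was lower at 16.9 ± 3.40 against 94.7 ± 21.9 CPM (-2.48).

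Layer 4 had 3 of 7 genes higher (5 without Il-17ra-Cre replicate 1) and 0 lower (1 without Il-17ra-Cre replicate 3). Rspo1, a secreted activator of Wnt signalling (GRCm38, chromosome 4, 124986430 to 125009099), was at 74.2, 85.004 and 91.2 against 14.6, 11.7, 10.8 and 8.67 CPM (2.87 ± 0.19, edgeR adjusted p = 4.72e-06), Plcxd2, a phospholipase-like protein, at 90.6 ± 13.1 against 28.7 ± 7.52 CPM and the potassium channel Kcnh5 at 12.6 ± 3.88 against 5.11 ± 0.314 CPM. The Kcnh5 call was lost without Il-17rb-Cre replicate 2. Rorb, the nuclear receptor that defines the layer, was at 53.2, 65.2 and 76.0 against 93.4, 90.0, 74.4 and 115 CPM, which did not pass (-0.52, edgeR adjusted p = 0.0828), but was lower among the 7 libraries alone (-0.64, edgeR adjusted p = 0.0207). In layer 5, 4 of 12 genes were higher, among them Fezf2, the selector of subcortical projection neurons, at 77.9 ± 10.5 against 27.9 ± 5.79 CPM and Pou3f1 at 129.5 ± 12.6 against 45.3 ± 19.5 CPM, and 2 lower, among them Bcl6 (-0.74). The higher count of layer 5 was 2 without Il-17rb-Cre replicate 1 or 3, and 2 without Il-17rc-Cre replicates 2 and 4 together, and the lower count 0 to 1 without any 1 of the 7 compared libraries but Il-17rb-Cre replicate 3, 1 without Il-17rc-Cre replicates 1 and 3 together, and 0 without Il-17rc-Cre replicates 2 and 4 together. The Bcl6 call was lost without Il-17rb-Cre replicate 1 or 2, or Il-17rc-Cre replicate 1 or 2. In layer 6 and the subplate, Nr4a2 was at 68.8 ± 25.4 against 12.9 ± 2.35 CPM and the neurotensin receptor Ntsr1 at 3.44 ± 2.02 against 0.544 ± 0.129 CPM, Sulf1, a heparan sulfatase, was lower (-1.54, lost without Il-17rb-Cre replicate 3), and 8 of 11 genes did not pass.

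Striatal projection neuron markers, a check on RNA from below the cortex, had 3 of 12 members lower and 0 higher. Over all tested genes 21.9% were lower and 17.7% higher. The list summed to 559, 624 and 562 CPM in Il-17rb-Cre and 956, 186, 1937 and 764 CPM in Il-17rc-Cre, with overlap. The lower count was 5 to 7 without Il-17ra-Cre replicate 1 or 3, or Il-17rc-Cre replicate 2, 1 without Il-17rc-Cre replicates 1 and 3 together, and 6 without Il-17rc-Cre replicates 2 and 4 together. Adora2a, the adenosine receptor of indirect pathway neurons, was at 2.14, 1.88 and 1.40 against 35.5, 9.93, 73.1 and 20.2 CPM, and the dopamine receptor Drd2 at 0.713, 0.534 and 0.658 against 9.30, 0.484, 27.5 and 6.32 CPM. The Il-17rc-Cre libraries were uneven in both, and the Drd2 call (edgeR adjusted p = 0.0382) was lost without any 1 of the 7 compared libraries but Il-17rc-Cre replicate 2. Penk, a peptide precursor of the same neurons, did not pass (-1.84, edgeR adjusted p = 0.157). It passed under DESeq2 (-1.92, DESeq2 adjusted p = 0.0488) and limma voom (-1.81, limma adjusted p = 0.0202). The part of these neurons in other results was not tested.

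Genes of synaptic vesicle release followed the neuronal markers. Of 30 such genes 25 were higher in Il-17rb-Cre and 0 lower, at a median of 1.56. The fusion proteins Vamp1 and Vamp2 were at 294 ± 9.55 against 86.3 ± 9.64 and 3889 ± 401 against 1115 ± 196 CPM, synapsin 1 (Syn1) at 1269 ± 193 against 405 ± 42.5 CPM and the vesicle protein Rph3a at 266 ± 19.5 against 64.6 ± 4.07 CPM. On the postsynaptic side 22 of 26 scaffold and kinase genes were higher and 1 lower (median 1.32). Camk2a and Camk2b, subunits of the calcium and calmodulin-dependent kinase of spines, had log2 fold changes of 1.69 ± 0.23 and 1.53 ± 0.22. The lower member was Homer3, at 1.35, 1.27 and 1.06 CPM in Il-17rb-Cre and 29.0, 20.2, 25.8 and 25.2 CPM in Il-17rc-Cre (-4.35 ± 0.23, edgeR adjusted p = 1.5e-06), whereas its relative Homer1 was higher, at 237 ± 24.4 against 87.4 ± 10.1 CPM. About 25.4% of the exonic length of Homer3 is shared with Ddx49. Baiap2, a link between receptors and actin, was at 708 ± 24.7 against 264 ± 52.0 CPM, and its call was lost without Il-17rc-Cre replicates 2 and 4 together.

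Glutamate receptor genes were split by member. Among 18 ionotropic receptor genes 9 were higher and 1 lower. Grin1, the obligatory subunit of NMDA receptors, was at 91.9, 137 and 133 against 34.1, 47.5, 41.1 and 32.9 CPM (1.63 ± 0.29, edgeR adjusted p = 0.00172), and Grin2a, Gria2 and Gria4, further NMDA and AMPA receptor subunits, were at log2 fold changes of 1.27, 1.26 and 1.46. Grin2c, an NMDA receptor subunit known from cerebellar granule cells and from cortical astrocytes, was the lower one, at 0.263, 0.507 and 2.06 against 43.2, 13.8, 53.4 and 11.5 CPM (-5.00 ± 0.95, edgeR adjusted p = 0.00237). AMPA receptor auxiliary genes had 7 of 15 higher and 1 lower. Cacng3 was at 185 ± 25.0 against 50.2 ± 11.6 CPM, Olfm1 at 2019.8 ± 212 against 525 ± 60.8 CPM, Olfm2 at 302 ± 33.4 against 66.0 ± 9.76 CPM, Gsg1l at 67.4 ± 11.5 against 20.3 ± 4.39 CPM and Cnih2 at 503 ± 24.3 against 147 ± 42.5 CPM, and the Cnih2 call was lost without Il-17rc-Cre replicates 2 and 4 together. The lower count of this list was 2 to 3 without Il-17ra-Cre replicate 1 or 3, or Il-17rc-Cre replicate 2, and 2 without Il-17rc-Cre replicates 2 and 4 together. For ionotropic receptors, the higher count was 5 without Il-17rc-Cre replicates 1 and 3 together, and the lower count 2 without Il-17ra-Cre replicate 3. Of 7 metabotropic receptors 3 were higher, 1 without Il-17rb-Cre replicate 2 or 3, or Il-17rc-Cre replicate 1 or 4, and 1 lower. Grm2, which is presynaptic in neurons, was higher (1.79 ± 0.30) and Grm3, which astrocytes also make, lower (-1.92 ± 0.29).

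Inhibitory receptors and ion channels also had members on both sides. GABA receptor genes had 9 of 14 higher, 5 without Il-17rc-Cre replicates 2 and 4 together, and 1 lower, 2 without Il-17rc-Cre replicate 4, and 2 without Il-17rc-Cre replicates 2 and 4 together (median 1.18). Gabra3 and Gabrd, which encode an alpha and the delta subunit, had log2 fold changes of 1.38 and 1.47, and Gabrg1, a gamma subunit found in glia, was lower (-2.65 ± 0.46, edgeR adjusted p = 0.00133). Potassium channels had 29 of 60 members higher and 7 lower. Kcna6, a voltage-gated channel, was at 96.5 ± 17.1 against 31.0 ± 3.18 CPM. Kcnj10, the inward rectifier by which astrocytes take up potassium, was at 2.67, 3.19 and 2.12 against 94.3, 72.3, 124 and 69.4 CPM, its partner Kcnj16 at 1.47 ± 0.995 against 119 ± 33.0 CPM, and Kcnj8, the channel of pericytes, at 0.216 ± 0.197 against 45.7 ± 16.2 CPM. Channels for sodium and calcium, with the HCN pacemaker channels, had 14 of 32 members higher and 0 lower (median 1.16). They included the sodium channel subunit Scn8a at 137 ± 21.6 against 50.9 ± 9.86 CPM, and the calcium channel genes Cacnb3 (2.09), Cacnb4 (1.69) and Cacna1g (1.71).

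**Figure D3:**
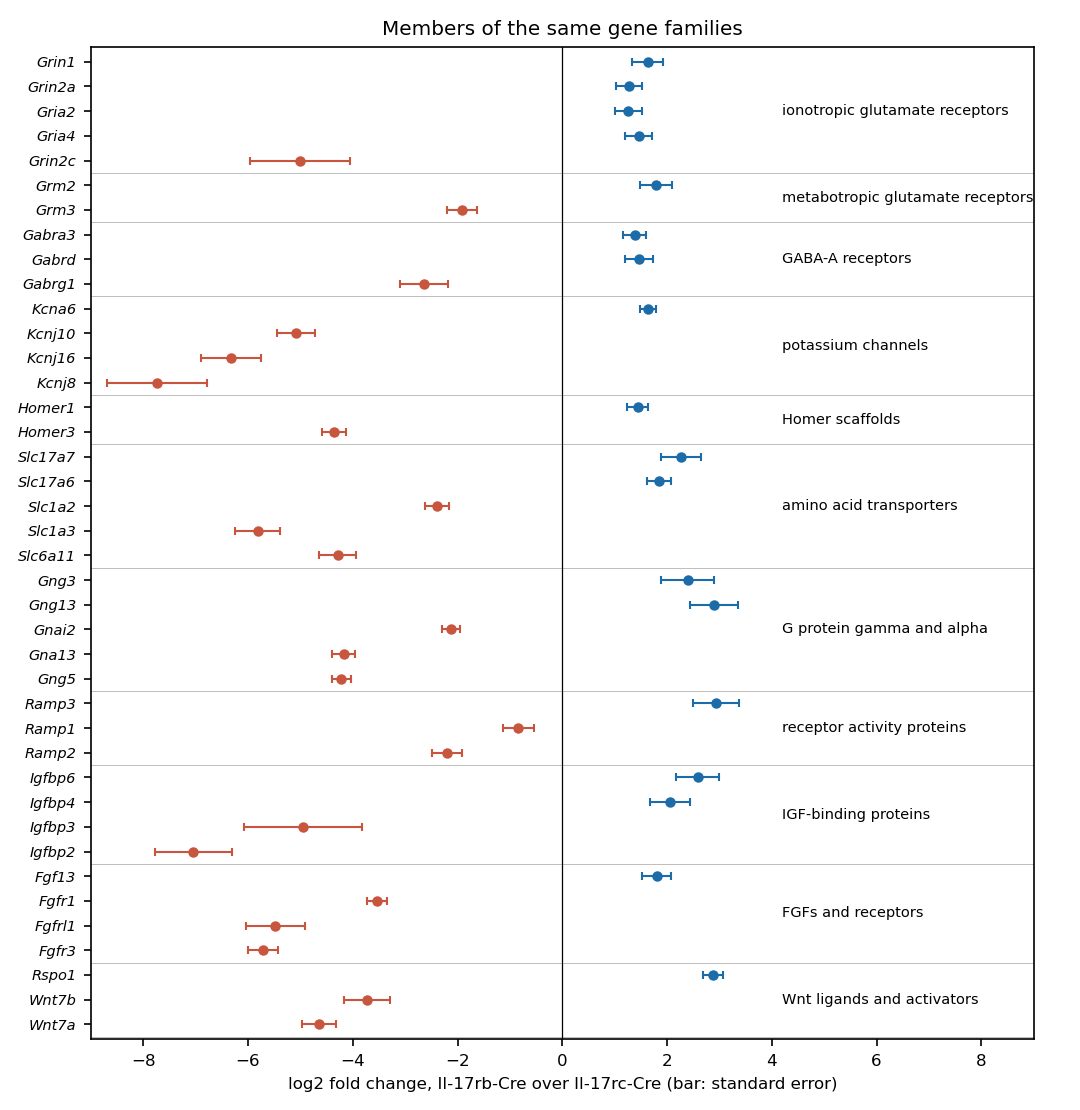
Log2 fold change of Il-17rb-Cre over Il-17rc-Cre with its standard error for members of 11 gene families; blue points are positive and red points negative. In each family at least 1 member is higher and at least 1 lower, as with Homer1 at 1.44 and Homer3 at -4.35; the members were picked to show this split and no test rests on it.

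Transporters of amino acid transmitters, the enzymes and carriers that divide work between neurons and astrocytes, had 6 of 17 members higher and 8 lower. The vesicular carriers described above were higher, and the carriers of the astrocyte membrane were lower. Slc1a3, the glutamate transporter GLAST, was at 20.0, 18.6 and 26.7 against 1210.3, 1091, 1468 and 1120.3 CPM (-5.81 ± 0.43, edgeR adjusted p = 8.22e-06), and Slc1a2, the transporter GLT-1, at 75.7, 99.9 and 76.4 against 495, 357, 568 and 347 CPM (-2.39 ± 0.22). No library overlapped in either gene. The GABA transporter Slc6a11 was at 7.08 ± 1.61 against 139 ± 47.0 CPM and the serine and alanine carrier Slc1a4 at 21.8 ± 3.42 against 118 ± 31.6 CPM.

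Peptides and their receptors were higher in part. Of 23 neuropeptide genes 10 were higher, 6 without Il-17rc-Cre replicates 1 and 3 together, and 3 lower (median 0.97). Cartpt, which encodes the cocaine- and amphetamine-regulated transcript peptides (GRCm38, chromosome 13, 99898489 to 99901091), was at 30.5, 47.8 and 28.1 against 6.09, 2.56, 4.50 and 4.38 CPM (3.02 ± 0.54, edgeR adjusted p = 0.00172). Cholecystokinin (Cck) was at 1190.2, 898 and 901 against 215, 199.9, 215 and 167 CPM, gastrin-releasing peptide (Grp) at 7.71 ± 2.56 against 0.740 ± 0.185 CPM and Adcyap1, the peptide PACAP, at 26.3 ± 6.74 against 6.69 ± 2.66 CPM. The cholecystokinin receptor Cckbr was higher with its ligand, at 94.4 ± 8.41 against 19.9 ± 3.83 CPM. Ramp3, which alters the ligand choice of calcitonin-family receptors, was at 26.5, 30.0 and 22.8 against 3.72, 4.45, 2.495 and 3.19 CPM (2.93 ± 0.44, edgeR adjusted p = 0.0006), while its relatives Ramp2 (-2.21) and Ramp1 (-0.84, edgeR adjusted p = 0.0431) were lower. The Ramp1 call was lost without any 1 of the 7 compared libraries but Il-17rc-Cre replicates 2 and 4. Lower too were Ntsr2, the neurotensin receptor of astrocytes, at 14.9 ± 0.609 against 272 ± 187 CPM and the PACAP receptor Adcyap1r1 at 18.2 ± 2.12 against 59.0 ± 13.0 CPM. Peptide receptors as a list had 11 of 33 higher and 7 lower.

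Of 33 monoamine and acetylcholine receptors 11 were higher and 5 lower. Higher members numbered 6 to 7 without Il-17rb-Cre replicate 2 or 3, and 5 without Il-17rc-Cre replicates 1 and 3 or 2 and 4 together, and the lower count 3 without Il-17rb-Cre replicate 1 or 2, and 2 without Il-17rc-Cre replicates 1 and 3 together. Chrm1, the muscarinic receptor of cortical projection neurons, was at 194 ± 35.7 against 48.0 ± 8.44 CPM, Chrm3 at 19.1 ± 2.03 against 4.78 ± 1.07 CPM and the serotonin receptor Htr5a at 7.10 ± 0.170 against 2.34 ± 0.646 CPM, and the adrenergic receptor Adra1a was lower at 1.52 ± 0.140 against 9.26 ± 2.76 CPM. Calcium sensors had 14 of 17 higher, 9 without Il-17rb-Cre replicate 1 or 3, or Il-17rc-Cre replicate 4, and 1 lower. The lower count was 0 without any 1 of the 7 compared libraries but Il-17rc-Cre replicates 1 and 3, or without Il-17ra-Cre replicate 2. It was also 0 without Il-17rc-Cre replicates 2 and 4 together. Calm3, which encodes calmodulin, was at 2368 ± 91.3 against 554 ± 169 CPM, Vsnl1 at 692 ± 56.7 against 134 ± 16.8 CPM, Ncald at 499 ± 71.1 against 159 ± 16.9 CPM and Cabp1, a modulator of calcium channels, at 693, 732 and 686 against 158, 87.0, 137 and 87.2 CPM. Genes of G protein signalling went both ways, with 18 of 48 higher and 12 lower. Gng3, a neuronal gamma subunit that shares 24.2% of its exonic length with Bscl2, was higher (2.40 ± 0.51), a call lost without Il-17rc-Cre replicates 2 and 4 together, and Gng5, Gna13 and Gnai2, which are broadly expressed subunits, were lower (-4.22 ± 0.18, -4.18 ± 0.21 and -2.13 ± 0.17). Gng13 was higher as well (2.90), but 51.6% of its exonic length is shared with Chtf18, and without strand its reads cannot be told apart from those of that gene. Of 31 adenylyl cyclase and phosphodiesterase genes 4 were higher and 8 lower, 5 without Il-17rb-Cre replicate 3, and 5 without Il-17rc-Cre replicates 1 and 3 together.

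Synaptic adhesion genes had 23 of 39 members higher and 1 lower. The number of higher genes became 13 to 15 without Il-17rb-Cre replicate 2 or 3, or Il-17rc-Cre replicate 1, 11 without Il-17rc-Cre replicates 1 and 3 together, and 14 without Il-17rc-Cre replicates 2 and 4 together. Cbln2, a secreted organiser of synapses, was at 79.5 ± 7.96 against 19.8 ± 4.33 CPM, the calsyntenin Clstn1 at 964 ± 227 against 401 ± 50.3 CPM and Lrrtm3 at 52.8 ± 9.19 against 18.6 ± 4.30 CPM. Axon guidance genes had 22 of 71 higher, 12 to 14 without Il-17rb-Cre replicate 2 or 3, 12 without Il-17rc-Cre replicates 1 and 3 together, and 11 without Il-17rc-Cre replicates 2 and 4 together, and 13 lower. Ntn5, a netrin-like protein, was at 20.8 ± 2.35 against 4.00 ± 0.429 CPM, the ephrin receptor Ephb6 at 150.4 ± 46.7 against 46.9 ± 8.05 CPM and the netrin receptor Unc5a at 104 ± 20.9 against 32.1 ± 4.17 CPM, the last with a call lost without Il-17rc-Cre replicates 1 and 3 or 2 and 4 together. On the lower side the semaphorin receptors Plxnb1 and Plxnb2 were at 1.23 ± 0.272 against 34.8 ± 13.9 and 5.20 ± 2.18 against 65.7 ± 7.41 CPM.

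Genes that respond to neuronal activity were higher in Il-17rb-Cre in part. Of 19 immediate early genes, which are transcribed within minutes of calcium entry, 11 were higher and 2 lower (median 1.44). Arc, a regulator of AMPA receptor traffic (GRCm38, chromosome 15, 74669083 to 74672570), was at 1159, 2117 and 1151 CPM in Il-17rb-Cre and 180.1, 203, 116 and 382 CPM in Il-17rc-Cre (2.74 ± 0.41, edgeR adjusted p = 0.00055), and the nuclear receptor Nr4a1 at 495, 577 and 332 against 77.0, 69.1, 43.9 and 114 CPM (2.62 ± 0.36). No Il-17rc-Cre library reached the lowest Il-17rb-Cre library in either gene. The transcription factor Egr3 was at 181 ± 7.43 against 56.9 ± 8.48 CPM and Egr1 at 1637, 2361 and 1894 against 495, 423, 475 and 972 CPM. Il-17rc-Cre replicate 4 was the highest of its group in Egr1, and that call (edgeR adjusted p = 0.0123) was lost without Il-17rb-Cre replicate 2. The higher count of the list was 7 without Il-17rc-Cre replicates 1 and 3 together. Summed over the list, Il-17rc-Cre replicates 1 to 4 were at 2028, 2082, 1943 and 3605 CPM and Il-17rb-Cre at 5798, 8129 and 5694 CPM. Excitatory markers moved with these genes, and their part in the difference was not tested.

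Slower activity-regulated genes had 6 of 18 members higher and 2 lower. The number of higher genes was 10 without Il-17ra-Cre replicate 3, and 1 without Il-17rc-Cre replicates 1 and 3 together, and the lower count 1 without Il-17rb-Cre replicate 1 or 2, or Il-17rc-Cre replicate 2 or 4, and 1 without Il-17rc-Cre replicates 2 and 4 together. Bdnf, the brain-derived neurotrophic factor, was at 76.0, 58.9 and 66.3 against 16.3, 18.0, 19.4 and 24.6 CPM (1.77 ± 0.39, edgeR adjusted p = 0.00482), a call lost without Il-17rc-Cre replicates 1 and 3 together, and Cbln4 was at 44.0 ± 9.35 against 9.91 ± 1.49 CPM. Gadd45b, a stress-inducible gene of this list that is also made by glia, was lower (-1.64 ± 0.32).

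Several of the largest folds on the higher side belonged to no list. They were picked among called genes without overlap between the groups. Fxyd7, a regulator of the sodium pump in neurons, was at 479, 467 and 383 against 93.3, 45.9, 83.9 and 50.2 CPM (edgeR adjusted p = 0.000171). Tmem215, a membrane protein, was at 47.6 ± 3.505 against 7.38 ± 0.344 CPM, Adamtsl2, a secreted matrix protein, at 21.2 ± 1.71 against 3.20 ± 1.62 CPM and Ttc9b at 852 ± 111 against 147 ± 56.1 CPM, the last no longer called without Il-17rc-Cre replicates 2 and 4 together.

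At the median, astrocyte genes were lower in Il-17rb-Cre by more than the excitatory, pan-neuronal or synaptic lists were higher. Gfap, the main filament protein of astrocytes, was at 157, 143 and 183 CPM in Il-17rb-Cre and 5757, 6488, 6404 and 7748 CPM in Il-17rc-Cre (-5.36 ± 0.25, edgeR adjusted p = 7.69e-07). Sox9, the transcription factor that sets astrocyte identity, was at 22.3, 16.4 and 19.4 against 644, 451, 633 and 745 CPM (-5.00 ± 0.25). The 4 Il-17rc-Cre libraries lay close together in both genes, far above the other group. Acsbg1, an acyl-CoA synthetase of astrocytes, was at 33.4 ± 2.80 against 1354 ± 284 CPM, the folate enzyme Aldh1l1 at 22.3 ± 1.83 against 595 ± 62.6 CPM and the growth factor receptor Fgfr3 at 6.40 ± 1.68 against 336 ± 65.9 CPM. The 14 markers summed to 474, 479 and 515 CPM in Il-17rb-Cre and 13349, 11894, 14602 and 13725 CPM in Il-17rc-Cre. Their median of -5.02 was -5.14 without Il-17rc-Cre replicates 2 and 4 and -4.72 without replicates 1 and 3. None of the defining markers was at 0 in Il-17rb-Cre.

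Reactive astrocyte genes, which rise in astrocytes after injury or cytokine exposure, were all lower in Il-17rb-Cre, 20 of 20 (median -6.38). Vim, the filament protein vimentin, was at 9.37, 6.87 and 11.5 against 599.6, 2606, 729 and 1911 CPM (-7.30 ± 0.63, edgeR adjusted p = 2.07e-05). The chemokine Cxcl10 was at 5.96 ± 1.06 against 621 ± 212 CPM, the heat shock protein Hspb1 at 0.717 ± 0.357 against 73.0 ± 30.2 CPM and the lipid receptor S1pr3 at 8.90 ± 1.76 against 121 ± 33.1 CPM. Ptx3, a secreted pattern recognition protein, had 1, 6 and 8 reads in the Il-17rb-Cre libraries and 15.6, 42.2, 31.3 and 50.1 CPM in Il-17rc-Cre, and Emp1, a membrane protein of reactive cells, had all of its 18 Il-17rb-Cre reads in replicate 2. Unlike the general astrocyte markers, this list was uneven among Il-17rc-Cre libraries, as given above. Its median was -5.88 without replicates 2 and 4 and -6.84 without replicates 1 and 3.

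**Figure D4:**
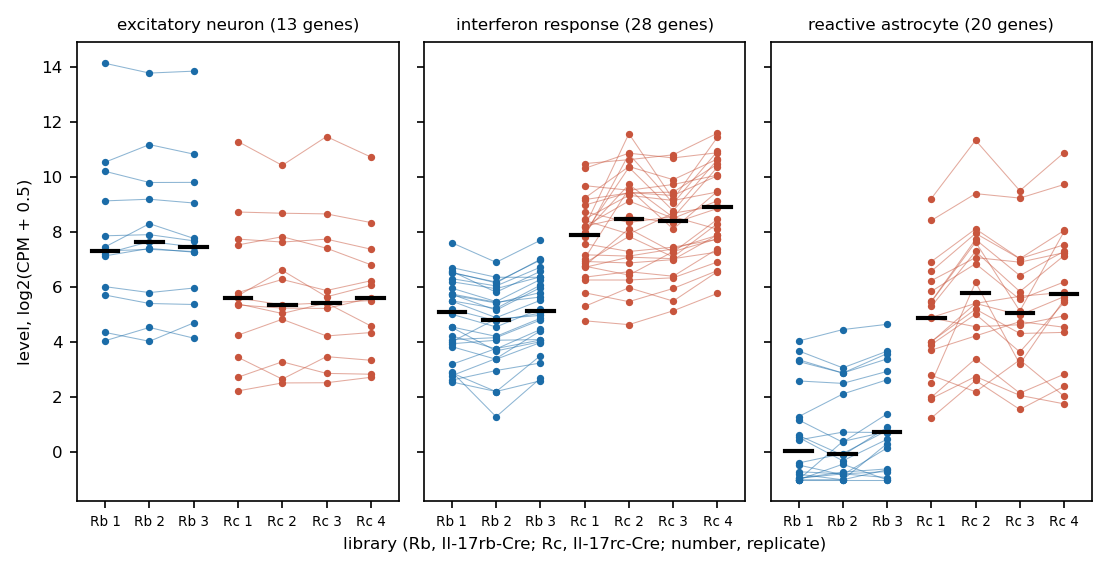
Each point is 1 tested gene of a list in 1 library, on a log2 scale of CPM with 0.5 added; thin lines join a gene over the libraries of a group and black bars mark the median of the list in a library. Excitatory markers lie higher in the 3 Il-17rb-Cre libraries (blue), and interferon and reactive astrocyte genes lie lower there than in each of the 4 Il-17rc-Cre libraries (red), of which replicates 2 and 4 have the highest medians.

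Proteins that couple astrocytes to each other and to vessels were lower with them. Of 20 connexins and aquaporins 10 were lower and 1 higher (0 without Il-17rb-Cre replicate 1, 2 without Il-17rc-Cre replicate 1, and 0 without Il-17rc-Cre replicates 2 and 4 together). Aqp4, the water channel of endfeet, was at 3.43, 5.18 and 8.16 against 383, 353, 463 and 357 CPM, the connexins Gja1 and Gjb6 were at 12.05 ± 0.951 against 416 ± 150.5 and 4.70 ± 1.47 against 154 ± 81.1 CPM, and Aqp9, a channel for glycerol, had no read in any Il-17rb-Cre library. Against a floor of 3 counts for the whole group, Aqp9 was at least 369-fold lower. Proteoglycan genes had 14 of 23 members lower and 1 higher (2 without Il-17rc-Cre replicate 2), with the glypicans Gpc4 and Gpc5 at -3.57 ± 0.24 and -5.23 ± 0.39 and the syndecan Sdc4 at -6.43 ± 0.41. Among filament genes of glia, Nes, a filament of progenitors and reactive astrocytes, was lower (-4.59 ± 0.68), while Ina, a neuronal filament placed in the same list, was higher at 638 ± 38.6 against 182 ± 33.3 CPM.

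Lipid and sterol genes were lower in Il-17rb-Cre, 17 of 23, with 1 higher, 2 without Il-17ra-Cre replicate 3 (median -1.26). Apoe, the main lipid carrier made by astrocytes, was at 244, 207 and 213 against 8430.0, 4866, 9347 and 3886 CPM (-4.90 ± 0.59, edgeR adjusted p = 0.000151), and clusterin (Clu) at 219, 235 and 218 against 1978, 1774, 2295 and 1931 CPM (-3.15 ± 0.30). The groups did not overlap in either gene. The sterol exporter Abca1 was at 1.91 ± 0.560 against 56.9 ± 6.54 CPM, the esterifying enzyme Soat1 at 5.06 ± 1.12 against 48.8 ± 15.6 CPM and Nsdhl, a synthesis enzyme, at 14.1 ± 0.922 against 39.5 ± 2.79 CPM.

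Oligodendrocyte markers overlapped between the groups in summed level. Of 13 such genes 1 was lower, 0 without Il-17rb-Cre replicate 1 or 2, 2 without Il-17ra-Cre replicate 3, 4 without Il-17rc-Cre replicates 1 and 3 together, and 0 without Il-17rc-Cre replicates 2 and 4 together, and 0 higher. Mbp, the myelin basic protein, was at 543, 521 and 517 CPM in Il-17rb-Cre and 385, 1549, 269.8 and 772 CPM in Il-17rc-Cre, and its difference (log2 -0.50, edgeR adjusted p = 0.618) turned to 0.14 without Il-17rc-Cre replicate 2, the library with the highest level. The list median of -0.75 was -0.23 without Il-17rc-Cre replicate 2, -1.46 without Il-17rc-Cre replicates 1 and 3 together and 0.49 without Il-17rc-Cre replicates 2 and 4 together. The lower member was Cnp, a myelin enzyme, at 176, 154 and 193 against 534, 1045, 504 and 815 CPM (edgeR adjusted p = 0.0154), lost without Il-17rb-Cre replicate 1 or 2. Precursor markers had 7 of 9 lower, 4 without Il-17rc-Cre replicates 2 and 4 together, with Olig1 at 41.1, 30.0 and 46.4 against 479, 484, 543 and 590.2 CPM, Olig2 at 7.42 ± 1.74 against 98.4 ± 6.66 CPM, and the proteoglycans Bcan and Cspg4 at -4.16 ± 0.75 and -4.91 ± 1.06. Cspg4 was highest in Il-17rc-Cre replicate 2. Olig1, Olig2 and Bcan are made by astrocytes or their progenitors as well.

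Markers of vessel cells were far lower in Il-17rb-Cre. All 14 mural and fibroblast markers were lower in Il-17rb-Cre. Vtn, which encodes vitronectin, a protein of brain pericytes, was at 1.80, 2.26 and 2.74 against 232, 595, 311 and 287 CPM (-7.29 ± 0.50, edgeR adjusted p = 5.88e-06), and Rgs5, a regulator of G protein signalling in pericytes, at 1.78, 3.804 and 2.30 against 173, 289, 147 and 104 CPM (-6.08 ± 0.45). The Il-17rb-Cre values were a few CPM at most. Pdgfrb, the receptor that recruits pericytes, had 12 reads in Il-17rb-Cre, all in replicate 3, against 33.3 ± 9.99 CPM, and Notch3, a receptor of arterial muscle, 18 reads against 16.7 ± 6.70 CPM. Foxs1 and Tbx2, transcription factors among the largest folds, had 12 and 17 reads, each in a single Il-17rb-Cre library, and 19.8 ± 9.58 and 26.5 ± 8.85 CPM in Il-17rc-Cre. Fitted folds of such genes depend on few reads. The list summed to 4.37, 10.8 and 6.73 CPM in Il-17rb-Cre and 523, 1095, 599.7 and 518 CPM in Il-17rc-Cre.

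Endothelial markers had 9 of 12 members lower, 5 without Il-17rb-Cre replicate 3, or Il-17rc-Cre replicate 2, and 5 without Il-17rc-Cre replicates 2 and 4 together. Ly6a and Ly6c1, surface proteins of brain endothelium, were at 3.07 ± 1.51 against 252 ± 155 and 0.718 ± 0.569 against 48.4 ± 36.0 CPM, and the tight junction protein Cldn5 at 0.770, 2.19 and 1.32 against 19.8, 52.3, 17.9 and 11.5 CPM. Ly6a is also induced by interferon. Ependymal and choroid plexus markers had 5 of 10 lower, 3 without Il-17rc-Cre replicates 1 and 3 together, with the cilia factor Foxj1 at 4.00, 4.43 and 1.92 against 94.1, 46.9, 77.4 and 73.0 CPM, the cilia protein Cfap126 at 1.28 ± 0.439 against 13.8 ± 6.69 CPM and Rarres2, the chemoattractant chemerin, at 0.251 ± 0.0965 against 28.4 ± 14.7 CPM, though 33.6% of its exonic length is shared with Lrrc61. Collagen and laminin genes had 23 of 56 lower and 1 higher (2 without Il-17rc-Cre replicates 2 and 4 together). Sparc, a matrix protein of astrocytes and vessels, was at 9.42, 9.56 and 8.42 against 488, 1212, 634 and 696 CPM, Lamb2 at 0.893 ± 0.497 against 25.3 ± 9.83 CPM, and Col4a1, of the vessel basement membrane, at 15.6, 53.3, 21.0 and 18.2 CPM in Il-17rc-Cre, where replicate 2 was the highest, against 2.83 ± 1.64 CPM. Col5a2 had no read in Il-17rb-Cre and was at least 166.2-fold lower.

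Microglial genes were low in both groups. The 16 markers summed to 28.9, 33.0 and 35.2 CPM in Il-17rb-Cre and 51.9, 287, 56.1 and 145 CPM in Il-17rc-Cre, where replicates 2 and 4 stood above the other 2. In the test 12 were lower and 0 higher (median -2.38, -0.98 without Il-17rc-Cre replicates 2 and 4 together). In this list the lower count was 4 to 7 without any 1 of the 7 compared libraries but Il-17rc-Cre replicates 1 and 3, and 3 without Il-17rc-Cre replicates 2 and 4 together, and the higher count 1 without Il-17rc-Cre replicate 2, and 1 without Il-17rc-Cre replicates 2 and 4 together. P2ry12, the purinergic receptor of resting microglia, was at 0.471 ± 0.137 against 4.83 ± 0.636 CPM. The complement gene C1qb was at 3.92, 4.204 and 3.86 against 5.35, 50.2, 4.76 and 23.5 CPM and C1qc at 2.23 ± 0.965 against 16.6 ± 14.8 CPM, and the protease Ctss at 2.6996 ± 0.737 against 22.6 ± 24.6 CPM. The C1qb call was lost without any 1 of the 7 compared libraries but Il-17rc-Cre replicates 1 and 3, and the Ctss call without Il-17rb-Cre replicate 1 or 2. Lymphocyte and neutrophil markers had 2 of 9 lower, 0 to 1 without any 1 of the 7 compared libraries but Il-17rc-Cre replicates 1 and 3, 4 without Il-17rc-Cre replicate 3, 4 without Il-17rc-Cre replicates 1 and 3 together, and 1 without Il-17rc-Cre replicates 2 and 4 together. None of 5 erythrocyte markers passed (edgeR).

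Genes of the interferon response were lower in Il-17rb-Cre without exception, 28 of 28 (median -3.34). Interferons act through STAT and IRF factors, which bind the interferon-stimulated response element (ISRE) near the start of these genes. Its core letters, a pair of TTTC repeats with 2 bases of any kind between them, searched on both strands in the 250 bases before each start in RefSeq promoters (GRCm38.p6), were present in 13 of the 21 interferon genes that matched, or 61.9%, against 2.77% of promoters of tested genes and 3.04% of all 27025 promoters. A match is a description of letters and not a binding site. The search covered 8 motifs in all, the others being the cyclic AMP response element TGACGTCA, GAS (TTCNNNGAA), TATAAA, AP-1 (TGANTCA) and the CArG, kappaB and NFI motifs by name. Matches could overlap, as in Gbp3, Bst2 and Oas1a. Of the 21 interferon promoters, 28.6% held GAS, 23.8% AP-1, 23.8% TATAAA and 19.05% kappaB, and 0 held TGACGTCA, CArG or NFI. Promoters of tested genes held GAS in 5.93%, AP-1 in 4.57%, TATAAA in 7.26% and kappaB in 8.7%. For 6 of the genes described next, the stretch with the match is printed 5′ to 3′ on the strand of the gene. Capitals mark the match. All but B2m are among the interferon genes counted above. B2m is of the antigen presentation list, where 2 of 13 promoters, or 15.4%, held the ISRE letters.
Gbp2 (chr3:142620573-142620642, plus strand): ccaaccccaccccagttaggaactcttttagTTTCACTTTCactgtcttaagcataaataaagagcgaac
Gbp3 (chr3:142559964-142560033, plus strand): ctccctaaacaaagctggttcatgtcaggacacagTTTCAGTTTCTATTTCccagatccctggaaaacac
Ifit3 (chr19:34583359-34583428, plus strand): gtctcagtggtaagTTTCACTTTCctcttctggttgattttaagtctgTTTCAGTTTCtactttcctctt
Bst2 (chr8:71537563-71537632, minus strand): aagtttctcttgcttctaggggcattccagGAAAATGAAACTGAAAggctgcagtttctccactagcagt
Oas1a (chr5:120907526-120907595, minus strand): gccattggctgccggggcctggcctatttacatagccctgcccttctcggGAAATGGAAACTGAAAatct
B2m (chr2:122147517-122147586, plus strand): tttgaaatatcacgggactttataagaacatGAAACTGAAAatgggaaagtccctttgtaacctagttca

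Gbp2, a guanylate-binding protein with an ISRE match 59 to 50 bases before its start, was at 6.89, 4.11 and 10.9 CPM in Il-17rb-Cre and 292, 3076, 588 and 2823 CPM in Il-17rc-Cre (-7.86 ± 1.01, edgeR adjusted p = 0.000233). Ifit3, an antiviral protein with a pair of matches, was at 95.1, 56.0 and 95.2 against 1447, 1598, 1807 and 3113 CPM (-4.60 ± 0.42). The groups were far apart in both, and within Il-17rc-Cre replicates 2 and 4 were the highest in Gbp2. Ifitm3, which blocks virus entry and has no match in this window, was at 36.2, 27.0 and 32.8 against 1282, 1881, 1670.5 and 1904 CPM (-5.72 ± 0.25, edgeR adjusted p = 7.69e-07). The membrane tether Bst2 was at 50.1 ± 6.73 against 571 ± 154 CPM, Gbp3 at 23.3 ± 5.36 against 447 ± 138 CPM and the RNA sensor Oas1a at 5.02 ± 0.784 against 173 ± 44.9 CPM. Copies of the Gbp and Ifi families are near-identical, so reads can be split or lost between them. Gbp4, Gbp8 and Gbp11 (-7.47, -8.02 and -8.73), Tgtp1 (-7.81), Ifi211 and Ifi205 (-9.46 and -9.31) are uncertain in size for that reason, and Gbp11, Ifi211 and Ifi205 had only 12, 10 and 12 reads in Il-17rb-Cre. Without Il-17rc-Cre replicates 2 and 4 the list median was -2.82 with 27 genes lower, and without replicates 1 and 3 it was -3.65.

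Antigen presentation genes were lower in the same way, all 18 of 18 (median -4.18, -3.24 without Il-17rc-Cre replicates 2 and 4). B2m, the light chain of class I molecules, was at 398, 258 and 316 against 1438, 5432, 2286 and 4196 CPM (-3.36 ± 0.52, edgeR adjusted p = 0.000729), and the class I heavy chains H2-K1 and H2-D1 were at 40.7 ± 14.2 against 1242 ± 627 and 245 ± 26.8 against 2609.7 ± 1352 CPM, with reads that near-identical copies can share. All 4 Il-17rc-Cre libraries were above the other group in B2m, by the widest margin in replicates 2 and 4. The immunoproteasome subunits Psmb8 and Psmb9 were at 19.0 ± 6.38 against 376 ± 199 and 18.3 ± 7.18 against 344 ± 194 CPM and the peptide transporter Tap1 at 13.1 ± 1.54 against 229 ± 119.8 CPM. Ubd, a ubiquitin-like protein induced by interferon and tumour necrosis factor, had 14 reads in Il-17rb-Cre against 4.57, 189, 8.45 and 78.5 CPM in Il-17rc-Cre.

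Chemokine genes had 15 of 28 members lower and 4 higher, 2 without Il-17rb-Cre replicate 1, 2 without Il-17rc-Cre replicates 1 and 3 together, and 1 without Il-17rc-Cre replicates 2 and 4 together. Ccl2, which attracts monocytes, was at 0.751, 0.294 and 0.915 against 51.0, 282, 152 and 269.7 CPM (-8.18 ± 0.81, edgeR adjusted p = 4.79e-05), and Ccl5 at 1.45, 1.55 and 1.23 against 64.0, 142, 99.9 and 141 CPM (-6.31 ± 0.48). Cxcl11 had 7 reads in Il-17rb-Cre, all in replicate 1, and 31.1 ± 23.5 CPM in Il-17rc-Cre. Cxcl2, which attracts neutrophils, had none and was at least 210.4-fold lower. The exception among abundant members was Cx3cl1, the fractalkine that neurons present to microglia, at 944, 1489.5 and 1291 against 374, 459.7, 479 and 435 CPM (1.51 ± 0.21, edgeR adjusted p = 0.000353). With genes lacking reads set at the floor of 3 counts, the list median was -3.65, and -4.30 as fitted (-2.83 without Il-17rc-Cre replicates 2 and 4 together).

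Genes of the signalling path and known targets of IL-17 receptors were lower in Il-17rb-Cre, 19 of 26, with 0 higher, 1 without Il-17rb-Cre replicate 2, or Il-17rc-Cre replicate 2 (median -1.54). Cebpd, a C/EBP factor that IL-17 induces and that shares 15.0% of its exonic length with Spidr, was at 10.4, 10.7 and 16.996 against 345, 462, 365 and 738 CPM (-5.23 ± 0.36, edgeR adjusted p = 5.89e-06). Nfkbia, the inhibitor of NF-kappaB that NF-kappaB itself induces, was at 47.4, 47.9 and 41.9 against 351, 633, 309 and 405 CPM (-3.21 ± 0.39), and lipocalin 2 (Lcn2) had 14 reads in Il-17rb-Cre against 12.6, 18.3, 26.5 and 22.9 CPM. All 4 Il-17rc-Cre libraries stood above the other group in each of these genes. These genes are also made by reactive astrocytes, whose list moved with them, and its part in this difference was not tested.

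Cytokine receptor genes had 15 of 23 lower and 0 higher, 1 without Il-17rc-Cre replicates 2 and 4 together (median -2.08). Tnfrsf1a, a receptor of tumour necrosis factor, was at 0.788, 2.696 and 3.34 against 142, 140.2, 197 and 190.3 CPM (-6.19 ± 0.48), the oncostatin M receptor Osmr at 0.653 ± 0.509 against 44.5 ± 11.5 CPM, the interleukin receptors Il1r1 and Il13ra1 at 0.588 ± 0.198 against 7.63 ± 0.882 and 0.483 ± 0.275 against 18.3 ± 6.44 CPM, and Cntfr, the receptor of ciliary neurotrophic factor, at 32.3 ± 4.21 against 121 ± 68.4 CPM. Complement genes had 12 of 15 lower, 6 without Il-17rc-Cre replicates 2 and 4 together. Serping1, the inhibitor of the first complement component, was at 3.43, 2.34 and 1.87 against 58.2, 352, 110.3 and 399 CPM, C4b at 16.03, 21.5 and 24.7 against 122, 279, 131 and 187 CPM, and C1s1 and C2 were at 0.105 ± 0.0406 against 6.73 ± 4.98 and 0.184 ± 0.0248 against 2.74 ± 1.94 CPM.

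Other large folds on the lower side were those of injury and matrix genes. Lgals3, a galectin of phagocytes and reactive glia, was at 3.12, 1.11 and 2.46 against 117, 1344, 153 and 598 CPM (-7.96 ± 1.14), Nupr1, a stress-induced nuclear protein, at 6.19, 3.92 and 8.16 against 490.2, 3582, 711 and 1843 CPM, and the adhesion molecule Vcam1 at 3.19, 1.70 and 3.77 against 194, 848, 322 and 564 CPM. Each was below 10 CPM in every Il-17rb-Cre library, and in Il-17rc-Cre replicates 2 and 4 were highest in all 3. Glipr2 was at 2.61 ± 0.711 against 462 ± 235 CPM, and Flnc, a filamin, had 22 reads in Il-17rb-Cre against 33.5 ± 27.6 CPM.

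Secreted growth factors and their receptors had called members on 1 or both sides. Over all tested genes 17.7% were higher and 21.9% lower. Higher counts of the Wnt, TGF-beta and BMP, insulin-like growth factor and neurotrophic lists were near that higher share. Of 19 Notch pathway genes 13 were lower and 0 higher, with the receptor Notch1 at 0.137 ± 0.0872 against 15.0 ± 2.34 CPM and the inhibitors of differentiation Id1 and Id3 at 3.77 ± 0.446 against 53.3 ± 15.4 and 22.0 ± 4.74 against 303 ± 64.4 CPM. Wnt genes had 16 of 43 lower and 6 higher. The higher count was 3 without Il-17rb-Cre replicate 2 or 3, or Il-17rc-Cre replicate 3 or 4, and 2 without Il-17rc-Cre replicates 1 and 3 or 2 and 4 together. The ligands Wnt7a and Wnt7b, which act on brain endothelium, were at 1.83 ± 0.742 against 45.8 ± 6.58 and 9.11 ± 2.71 against 120.5 ± 52.3 CPM, the receptors Fzd1 and Lgr6 at -2.99 and -4.61, and the activator Rspo1, described with layer 4, was higher. In the TGF-beta and BMP pathway 13 of 29 were lower and 4 higher, 1 to 2 without Il-17rb-Cre replicate 1, 2 or 3, and 2 without Il-17rc-Cre replicates 1 and 3 or 2 and 4 together. Bmp7 was at 1.08 ± 0.292 against 23.5 ± 12.4 CPM, the receptor Bmpr1b at -2.95 and the latency protein Ltbp1 at -4.07.

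Fibroblast growth factor genes had 7 of 20 higher and 7 lower. Higher members numbered 4 without any 1 of the 7 compared libraries but Il-17rc-Cre replicate 2, and 4 without Il-17rc-Cre replicates 1 and 3 or 2 and 4 together. Fgf13, an intracellular factor that binds sodium channels, was higher at 212, 238 and 249 against 73.1, 57.1, 81.2 and 56.1 CPM (1.80 ± 0.27, edgeR adjusted p = 0.00063). The receptors Fgfr1 (-3.53 ± 0.19) and Fgfrl1 (-5.48 ± 0.56) were lower, as was Fgfr3 above, and Fgf7 had no read in Il-17rb-Cre and was at least 68.8-fold lower. Of 11 insulin-like growth factor genes 2 were higher and 4 lower. The binding protein Igfbp2 was at 11.2, 9.81 and 14.3 against 627, 3085, 986 and 1513 CPM (-7.04 ± 0.73) and Igfbp3 at -4.95, while Igfbp6 was at 513, 421 and 429.5 against 88.7, 61.3, 89.4 and 64.0 CPM (2.58 ± 0.42) and Igfbp4 at 2.06. Binding proteins of the same family were thus on opposite sides without overlap between groups. Among neurotrophic genes, Ntrk2, whose short form is abundant in astrocytes, was at 99.1 ± 11.7 against 554 ± 68.2 CPM, Mdk, the factor midkine, at 2.697 ± 0.625 against 75.0 ± 17.9 CPM and Gfra1 at -2.83, with 3 of 14 higher and 6 lower. The number of higher genes became 1 without Il-17rb-Cre replicate 1, 2 or 3, 0 without Il-17rc-Cre replicates 1 and 3 together, and 1 without Il-17rc-Cre replicates 2 and 4 together.

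Genes of basic metabolism differed in part. Glycolysis and glycogen genes had 6 of 25 higher and 10 lower. The number of higher genes was 2 to 3 without any 1 of the 7 compared libraries but Il-17rc-Cre replicate 2, or without Il-17ra-Cre replicate 2, and 2 without Il-17rc-Cre replicates 1 and 3 or 2 and 4 together. Pygm, the glycogen phosphorylase found in astrocytes, was at 4.24, 9.50 and 6.72 against 204, 83.0, 179.9 and 96.8 CPM (-4.37 ± 0.44, edgeR adjusted p = 4.9e-05), glycogen synthase (Gys1) at 12.1 ± 2.44 against 34.4 ± 4.86 CPM, hexokinase 2 (Hk2) at 0.734 ± 0.152 against 14.3 ± 10.3 CPM and the glucose transporter of glia and vessels Slc2a1 at 15.9 ± 0.668 against 66.5 ± 10.6 CPM. Gapdh, a glycolytic enzyme of all cells, did not pass (0.32, edgeR adjusted p = 0.0502). It passed under upper quartile scaling (0.43, edgeR adjusted p = 0.0247) and without Il-17ra-Cre replicate 3 (0.33, edgeR adjusted p = 0.0135). It also passed under DESeq2 (0.25, DESeq2 adjusted p = 0.0325) and limma voom (0.29, limma adjusted p = 0.00193). Nuclear genes of oxidative phosphorylation had 5 of 83 higher and 7 lower, close to 0 at the median (0.25, 0.07 without Il-17rb-Cre replicate 1, 0.42 without Il-17rc-Cre replicates 1 and 3 together and 0.09 without Il-17rc-Cre replicates 2 and 4 together). The higher count was 0 to 2 without any 1 of the 7 compared libraries but Il-17rc-Cre replicate 3, 18 without Il-17ra-Cre replicate 3, and 0 without Il-17rc-Cre replicates 2 and 4 together, and the lower count 4 without Il-17rb-Cre replicate 2 or 3, or Il-17rc-Cre replicate 1 or 3, and 4 without Il-17rc-Cre replicates 1 and 3 together. Those lowest by fold were the tissue-restricted subunits Cox4i2, Cox6b2 and Cox7a1 (-5.84, -4.38 and -3.12), and Sdhc was at -1.01.

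Ribosomal protein genes, which share the pull-down with the tag, had 5 of 81 higher and 1 lower, against 17.7% and 21.9% of all tested genes. The higher ones included Rps12 (2.00 ± 0.40), Rpl12 (0.75) and Rpl13a (1.07), and the lower one was Rps27l (-2.43 ± 0.30), a relative of Rps27 that is induced by p53. Higher members numbered 1 to 3 without any 1 of the 7 compared libraries, or without Il-17ra-Cre replicate 1, 25 without Il-17ra-Cre replicate 3, and 1 without Il-17rc-Cre replicates 1 and 3 or 2 and 4 together, and lower ones 2 to 3 without Il-17ra-Cre replicate 1, 2 or 3, or Il-17rc-Cre replicate 1, and 2 without Il-17rc-Cre replicates 1 and 3 together. The Il-17ra-Cre libraries entered the model through the spread, the scaling and the filter on low counts, so that 21073 genes were tested without Il-17ra-Cre replicate 3. Many of these genes have processed pseudogenes, which can take up their reads. Heat shock and unfolded protein genes had 7 of 27 higher and 10 lower. Hspb8, a small heat shock protein, was at 4.55 ± 0.539 against 142 ± 27.6 CPM and the stress factor Atf3 at 8.01 ± 0.954 against 68.5 ± 34.7 CPM, both lower, while the chaperones Hsp90ab1 (0.67) and Hspa8 (0.48, edgeR adjusted p = 0.043) and the membrane protein Herpud1 (1.02) were higher. The Hspa8 call was lost without any 1 of the 7 compared libraries but Il-17rc-Cre replicate 2, or without Il-17ra-Cre replicate 1 or 2, the Hsp90ab1 call without Il-17rb-Cre replicate 3, the Rpl12 call without any 1 of the 7 compared libraries, or without Il-17ra-Cre replicate 1, and the Rpl13a call without any 1 of the 7 compared libraries. The higher count of the heat shock list was 3 without Il-17rc-Cre replicates 1 and 3 together, and its lower count 6 without Il-17rc-Cre replicates 2 and 4 together. DNA replication genes had 6 of 18 lower, 3 without Il-17rb-Cre replicate 2 or 3, and 3 without Il-17rc-Cre replicates 2 and 4 together, and 0 higher (1 without Il-17rc-Cre replicate 2, and 1 without Il-17rc-Cre replicates 2 and 4 together). Lower members included Mcm3 at 1.23 ± 0.508 against 9.16 ± 2.53 CPM and Tyms at 0.836 ± 0.177 against 5.04 ± 0.491 CPM. Cdk1, a mitotic kinase, had no read in Il-17rb-Cre and 0.535, 5.38, 0.454 and 0.156 CPM in Il-17rc-Cre. Of 9 mitochondrially encoded genes 2 were lower, 0 to 1 without Il-17ra-Cre replicate 2, or Il-17rb-Cre replicate 1 or 3, or Il-17rc-Cre replicate 1 or 2, 4 to 5 without Il-17ra-Cre replicate 1 or 3, 1 without Il-17rc-Cre replicates 1 and 3 together, and 0 without Il-17rc-Cre replicates 2 and 4 together. The oxidase subunit mt-Co1 was at 11.4 ± 2.49 against 22.2 ± 9.38 CPM, with a call lost without Il-17rb-Cre replicate 1 or 3, or Il-17rc-Cre replicate 2.

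Across all tested genes, calls varied with the level, length and kind of gene. Of 6967 genes with an average log2 CPM under 1, 289 were higher and 896 lower in Il-17rb-Cre. Of 1736 genes with an average over 7, 659 were higher and 405 lower. The shares by length and kind below were not adjusted for level, and its part in them was not tested. Among the 1557 longest of 15567 protein-coding genes by genomic span, 28.1% were higher in Il-17rb-Cre, against 20.7% of all protein-coding genes, and 22.2% were lower, against 25.6%. Of 1028 long intergenic RNA genes 11.7% were higher and 14.7% lower. Of 1721 processed pseudogenes, which share sequence with their parents, 4.13% were higher and 4.65% lower. Promoters of called genes differed in letters as well: the cyclic AMP response element TGACGTCA was in 3.61% of 2657 promoters of higher genes and 1.54% of 3321 promoters of lower genes, against 2.49% of the promoters of tested genes, and the ISRE letters were in 2.15% and 3.82%. In the same order, AP-1 was in 3.31% and 5.60%, kappaB in 8.09% and 9.82%, GAS in 5.04% and 6.63% and TATAAA in 6.32% and 7.77%. The median number of CG letter pairs was 16 in promoters of higher genes and 13 in those of lower genes. TGACGTCA holds such a pair, and the part of these pairs in its shares was not tested. These shares are descriptions, with no test.

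**Figure D5:**
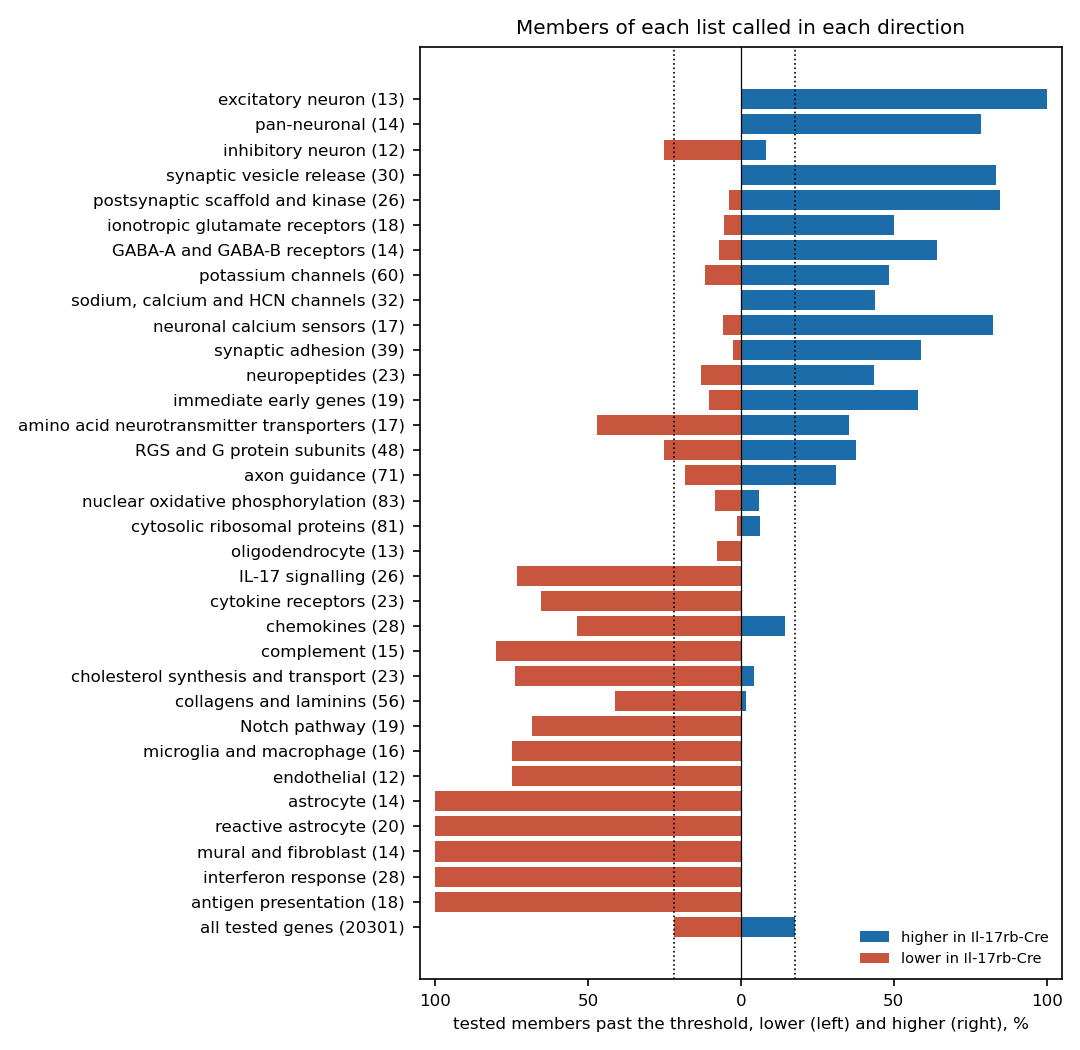
Share of the tested members of each list that passed the threshold, in %, lower in Il-17rb-Cre to the left (red) and higher to the right (blue), with the number of tested members in brackets and dotted lines at the shares over all tested genes (21.9% lower, 17.7% higher). The excitatory list reaches 100% on the right, and the astrocyte, reactive astrocyte, mural, interferon and antigen presentation lists reach 100% on the left.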

How the data were processed

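Raw counts per gene were used as deposited by the authors, with RNA amplified with SMART-Seq v4, which does not mark strand or molecules, per the labels' protocols. STAR 2.7.5c and GRCm38 are named in the submitters' processing notes; the counting tool is not given in the sources used here. All 55536 gene IDs matched GENCODE annotation of that build, and 0 columns were set aside. Total counts were 44669145 to 78794795 per library compared. Genes were filtered with filterByExpr of edgeR 4.0.16 in R 4.3.3, keeping the IL-17 receptor genes, scaled by TMM and tested by the quasi-likelihood test in 1 model of all 10 libraries, so that the 3 Il-17ra-Cre libraries add to the estimate of spread. Benjamini-Hochberg adjustment ran over all 20301 tested genes at 0.05. The steps were also run on simulated counts with few changed genes in random directions. These data held far more and larger differences, so that run cannot tell how scaling and error control behaved here. Standard errors come from the fold change and its F statistic. Intervals from reads would cover counting error only. Alternatives used DESeq2 1.42.0, limma 3.58.1, other scalings and filters, the replicate number as a block, and libraries left out. Named genes were the receptors, ligands, sex-linked genes and Rpl10a. Added to them were up to 4 called members of smallest p and 2 members of highest level per list. The 12 and 8 largest folds per direction above an average log2 CPM of 3 and 7 were added too. These folds were taken only from called genes without overlap between the groups, so both traits follow from the choice. Some genes that this rule names are not reported here. The members and lists were chosen with earlier results of these data known. Promoters came from RefSeq (GRCm38.p6) and matched 13349 tested genes.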

Additional observations from a re-analysis of the deposited data

Results flagged for a closer look

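In the 4 Il-17rc-Cre libraries, 13 of 326 values examined had 1 library far from the other 3. Chance alone sets apart about 1 in 20 such groups, and the flags were no more frequent than that. Many of the genes were chosen by p or fold, and summed lists share genes with them, so this rate is a rough guide. The flagged values are given as descriptions. Groups of 3 libraries were not examined. Replicate 2 was the highest in Pou3f1 (74.5 CPM), Cspg4 (96.6 CPM), Col4a1 (53.3 CPM), Slc2a1 (82.2 CPM), mt-Co1 (36.2 CPM), Cdk1 (5.38 CPM) and the summed mural and fibroblast markers (1095 CPM). Replicate 4 was the highest in Egr1 (972 CPM), Il25 (0.538 CPM) and the summed immediate early genes (3605 CPM), and the lowest in Olfm1 (434 CPM) and Gapdh (2548 CPM). Replicate 1 was the lowest in Il1r1 (6.32 CPM).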

How the results depend on the processing

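The number of genes called was between 5524 and 10895 over 21 alternatives, against 8057, and the number lower between 3476 and 5528, against 4454. The number higher, 3603 as reported, was 5582 under limma voom, 2305 without Il-17rc-Cre replicates 1 and 3 together and 2048 without replicates 2 and 4 together, the last chosen after seeing the data. With 1 library left out in turn it was between 2221 and 4285, and the number called between 5946 and 9151. Of the genes reported as higher, 53.4% were called higher without Il-17rc-Cre replicates 2 and 4, and of those lower 74.8% were called lower, with 0 in opposite directions. Upper quartile scaling moved the median log2 fold change of all tested genes from 0.02 to 0.13. Of 248 named genes that were called, 221 were called in the same direction in every alternative, 27 lost the call in at least 1, and 0 reversed. Among those not called, Il17rb (-0.82) turned to 0.98 under limma voom and 0.77 without Il-17rc-Cre replicates 2 and 4, and Mbp (-0.50) to 0.28 and 0.69 in the same alternatives and to between -0.78 and 0.14 with 1 library left out; the cause was not tested. Of 62 list medians, 55 kept their direction in every alternative. Without Il-17rc-Cre replicates 2 and 4 the median turned from -0.21 to 0.018 in the fibroblast growth factor list, from -0.53 to 0.0079 in the heat shock list, from -0.10 to 0.52 in the Vip, Lamp5 and Sncg list, from -0.75 to 0.49 in the oligodendrocyte list and, outside the 62, from -0.82 to 0.49 over the 5 IL-17 receptor genes. The others that turned were the phosphodiesterase list (0.08, and -0.41 among the 7 libraries), insulin-like growth factors (-0.06, and 0.05 under upper quartile scaling) and glycolysis (-0.08, and 0.03 under the same scaling). Leaving out 1 library also turned the phosphodiesterase median, to -0.31 or -0.28 without Il-17rb-Cre replicate 2 or 3. It was -0.014 or -0.13 without Il-17rc-Cre replicate 3 or 4. Without Il-17rc-Cre replicate 2, the insulin-like growth factor median was 0.02 and that of the Vip, Lamp5 and Sncg list 0.43. The latter was 0.15 without Il-17rb-Cre replicate 1. Deviations from the group means of same-numbered Il-17rb-Cre and Il-17rc-Cre libraries correlated at -0.0025, 0.019 and -0.041 for numbers 1 to 3. Between Il-17ra-Cre libraries and same-numbered libraries of these groups the values were between -0.083 and 0.18. Whether same-numbered libraries shared their handling was not tested. With the replicate block by title number 6372 genes were called, 2660 of them higher, and 6294 by the number in the library name. Genes with few reads in Il-17rb-Cre limit the precision of the largest folds.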
